A study of Homo sapiens with 12 samples.

Results

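The 9 genes that respond to TGF-beta and BMP signals described here are ID1, ID2, ID3, ID4, SMAD6, SMAD7, SKIL, TGFBI and TGFB2. They were measured in TYK-nu cells, a human line labelled as high-grade serous ovarian adenocarcinoma, treated with cisplatin, a platinum drug that binds DNA, or with DMSO as its control. All 9 were among the 17508 genes of the count table. The 4 groups of 3 replicates were DMSO for 24 h, 15 μM cisplatin for 24 h, DMSO for 72 h and 15 μM cisplatin for 72 h, giving 12 libraries of poly(A)+ RNA with separate counts over exons and introns of each gene. Cells were grown as triplicates in serum-containing medium. The study describes its experiments in general as independently repeated and does not say how the 3 cultures of a group here were set up, so the p-values measure the spread between these libraries. The comparison of cisplatin with DMSO at each time addresses the effect of the drug. The comparison of 72 h with 24 h within each treatment addresses time in culture, which in cisplatin is also a longer exposure to the drug. Time cannot be told apart from anything else that differed between the 24 h and 72 h cultures or libraries.

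TGF-beta and BMP are secreted dimers that bind pairs of receptor kinases at the cell surface. The receptors phosphorylate signal-carrying SMAD proteins, SMAD2 and SMAD3 for TGF-beta and SMAD1, SMAD5 and SMAD9 for BMP, which join SMAD4 and enter the nucleus. BMP signals switch on the ID genes, whose products are helix-loop-helix proteins without a DNA-binding region that capture E proteins and so keep them off DNA, and SMAD6, whose product blocks the BMP arm. SMAD7 and SKIL are also feedback genes, the first acting on the receptors and the second as a co-repressor of the signal-carrying SMADs. TGFBI encodes a secreted matrix protein induced by TGF-beta, and TGFB2 encodes one of the TGF-beta ligands. ID1 and ID3 are also known for roles in the endothelium of growing vessels.

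The libraries held between 17341818 and 63913081 exon counts and between 1185012 and 4840181 intron counts, and 3 counts in a library corresponded to 0.0469 to 0.173 exon CPM, here the counts scaled to an unadjusted exon total of 1000000. Of 12 markers fixed for a serous ovarian line, 10 were in the table, 5 reached 10 counts in a library, and their sum was 305–317 exon CPM in DMSO and 300–310 in cisplatin at 24 h, and 278–283 and 296–302 at 72 h. KRT18 stood at 173 and MECOM at 123 exon CPM in DMSO at 24 h, while FOLR1, CDH1 and SOX17 were at 0 in every library and PAX8 had 0 to 2 counts per library. PECAM1, an endothelial adhesion molecule in the list of markers of other cell types, was at 2451 exon CPM in DMSO at 24 h and 1387 at 72 h. A further list of 12 endothelial genes was therefore written after these values were seen, and 8 of them were above 10 exon CPM in every library, including TIE1, CD93 and CDH5, whereas VWF reached at most about 1 exon CPM and EMCN at most 0.0956. The 11 genes of that list found in the table summed to 7877–7967 exon CPM in DMSO at 24 h, 7554–8047 in cisplatin at 24 h, 6602–6944 in DMSO at 72 h and 7111–7208 in cisplatin at 72 h. The 8 genes above 10 exon CPM were so in all 12 libraries, while ERG lay between 4.47 and 7.11 exon CPM. The marker levels thus went partly against the label, and whether the libraries hold the labelled line was not tested. Of the 7 markers of other cell types, 5 had an exon entry and 3 of these reached 10 counts in a library. PTPRC and LUM, of leukocytes and stroma, were at 0. CD3E, of T cells, had 6 to 45 counts per library, or at most 0.905 exon CPM.

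The regions before the RefSeq start of 3 genes with large changes are shown because binding letters of the SMAD proteins have been described for BMP-responsive promoters. Each is the 250 bases before that start on GRCh38.p14, read along the gene's own strand, for ID1 at chr20:31605039-31605288 (plus strand), ID3 at chr1:23559502-23559751 (minus strand) and SMAD6 at chr15:66701986-66702235 (plus strand). Capitals mark any match to GGCGCC, to CAGAC (or GTCTG, its other strand) or to the palindrome GTCTAGAC.
ID1: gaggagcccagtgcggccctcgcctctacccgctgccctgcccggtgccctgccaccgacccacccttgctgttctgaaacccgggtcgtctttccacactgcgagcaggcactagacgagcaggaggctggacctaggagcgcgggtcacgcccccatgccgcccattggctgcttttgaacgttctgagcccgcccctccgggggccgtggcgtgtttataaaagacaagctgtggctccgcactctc
ID3: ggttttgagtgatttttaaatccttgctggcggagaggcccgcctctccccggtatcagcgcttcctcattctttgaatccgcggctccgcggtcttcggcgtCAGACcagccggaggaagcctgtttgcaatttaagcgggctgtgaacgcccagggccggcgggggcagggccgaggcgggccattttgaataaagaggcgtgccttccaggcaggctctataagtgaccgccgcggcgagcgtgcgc
SMAD6: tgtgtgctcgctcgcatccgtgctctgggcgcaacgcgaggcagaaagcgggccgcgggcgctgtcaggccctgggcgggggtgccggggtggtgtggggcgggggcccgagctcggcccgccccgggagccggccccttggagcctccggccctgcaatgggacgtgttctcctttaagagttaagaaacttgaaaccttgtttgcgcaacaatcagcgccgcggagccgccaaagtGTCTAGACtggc
The SMAD6 window held GTCTAGAC starting 12 bases before the start, a string found in 0.1832% of 34943 distinct windows of the same length. The ID3 window held one CAGAC, starting 147 bases before the start, against 38.01% of windows with that string on either strand. The ID1 and ID2 windows held none of these strings. GGCGCC, present in 16.35% of windows, was found among the 9 genes only in the windows of TGFBI and SKIL. CAGAC was also found in those of SKIL, TGFB2 and ID4 and in 2 of the 3 windows of SMAD7. The SKIL window, the larger part of the ID2 window and the very end of the ID1 window lie within an annotated exon of the gene itself, and the ID1 window also overlaps an exon of ENSG00000289875. These are matches of letters in one short window and not measured binding.

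Between 24 and 72 h the ID genes fell about 4-fold in both treatments, and SMAD6 fell with them, while SKIL and TGFBI did not pass the test in either. Of the 9 genes, 6 passed the filter on low exon counts and were tested with the other genes of the table by edgeR. From 24 to 72 h ID1, ID2 and ID3 fell in DMSO, where 32.5% of the 10444 genes tested fell, and in cisplatin, where 31.5% did. SMAD6 exons were called lower in both as well, but passed the filter only through the 24 h libraries and are not read against these shares. In bulk RNA, fewer cells with a transcript and less transcript per cell cannot be told apart. The comparison with time in DMSO and that in cisplatin share no library.

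ID1 (ENSG00000125968, chr20:31605283-31606515 on GRCh38, plus strand) is a short gene of 2 exons. Its exon counts came to 282, 259 and 249 CPM in the DMSO libraries at 24 h and to 253, 259 and 287 CPM in the cisplatin libraries at 24 h. At 72 h the values were 64.9, 56.5 and 56.5 CPM in DMSO and 59.7, 62.5 and 63.4 CPM in cisplatin. Every 72 h library was therefore below every 24 h library, as held for 33.4% of all genes in DMSO and 33.2% in cisplatin, and at each time the treatments overlapped. The log2 fold change with time was −2.15 in DMSO (SE 0.066, adjusted p = 5.44e-18, 95% interval of the fall 4.05- to 4.89-fold) and −2.10 in cisplatin (SE 0.065, adjusted p = 1.06e-17). Including ID1 itself, only 23 of the 10444 tested genes fell by as much in DMSO and only 13 in cisplatin.

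ID3 (ENSG00000117318, chr1:23557926-23559501, minus strand), the most abundant of the 9 genes, followed the same course. Its exon CPM were 349, 330 and 311 in DMSO at 24 h, 326, 337 and 338 in cisplatin at 24 h, 91.6, 83.5 and 82.7 in DMSO at 72 h, and 96.1, 85.6 and 93.0 in cisplatin at 72 h. The groups again separated by time and not by treatment. The log2 fold change was −1.94 in DMSO (SE 0.059, adjusted p = 5.44e-18) and −1.87 in cisplatin (SE 0.058, adjusted p = 1.06e-17), a fall of 3.84-fold and 3.65-fold.

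ID2 (ENSG00000115738, chr2:8678845-8684461, plus strand) was far lower in level but fell as much. It stood at 8.13, 9.49 and 7.60 exon CPM in DMSO at 24 h and at 9.13, 9.44 and 10.3 in cisplatin at 24 h, and had dropped to 2.62, 2.24 and 1.79 in DMSO and 2.47, 2.15 and 1.31 in cisplatin at 72 h. No 72 h library reached the lowest 24 h library. These values rest on 39 to 322 exon counts per library. The log2 fold change was −1.96 in DMSO (SE 0.18, adjusted p = 1.33e-09) and −2.23 in cisplatin (SE 0.17, adjusted p = 6.07e-11). ID2 overlaps the antisense gene ID2-AS1 on the other strand, and because the strand setting of the counting is not given in the sources used here, reads of both genes could not be separated.

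ID4 (ENSG00000172201, chr6:19837370-19842197, plus strand), the remaining gene of the family, had 0 exon and 0 intron counts in each of the 12 libraries. A count of 3 in the shallowest library would correspond to 0.173 exon CPM, and a level below that could not have been detected there.

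**Figure D1:**
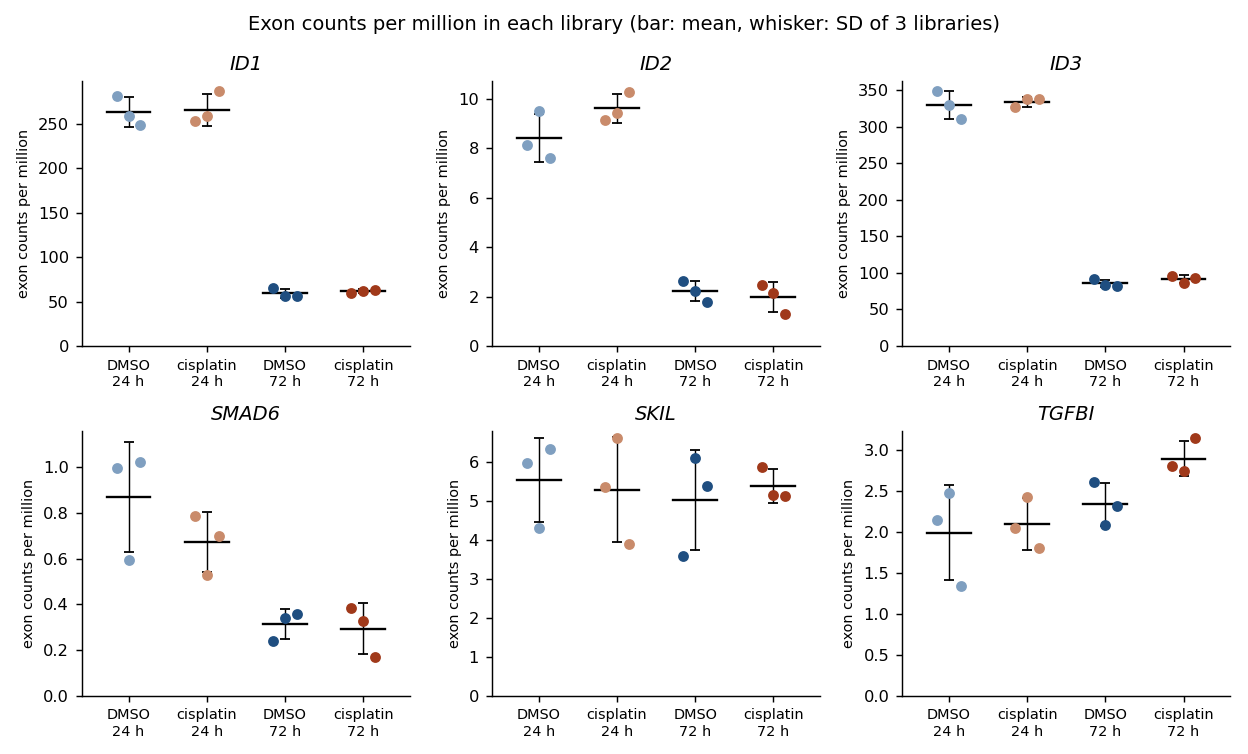
Exon CPM (linear vertical axes starting at 0) in each of the 12 libraries, for the 6 genes that passed the filter on low counts. Points are libraries, bars the mean and whiskers the SD of 3 libraries, and ID1, ID2, ID3 and SMAD6 sit lower in every 72 h library than in any 24 h library.

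The exon levels of ID1 and ID3 moved together across the 12 libraries, with a Pearson r of log2 CPM of 0.998, and ID2 followed ID1 with r = 0.971. After each group's mean was removed, r was 0.615 for ID1 with ID3 and 0.165 for ID1 with ID2. These are descriptions over 12 libraries in 4 groups. Among 9554 tested genes with a mean of at least 50 counts, the genes most like ID1 were ID3 and ZWINT (both r = 0.998), those most like ID3 were ID1 and SF3B4 (both 0.998), and those most like ID2 were RAB8A (0.991) and UBTF (0.989).

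Per kilobase of the canonical transcript, the order of levels in DMSO at 24 h was ID3 at 347 exon CPM per kb, ID1 at 268 ± 17.2 (SD, n = 3), ID2 at 6.47, SKIL at 0.777 ± 0.151, TGFBI at 0.734 ± 0.214 and SMAD6 at 0.228 ± 0.0631. SKIL and TGFBI did not differ beyond their spread in this order. Of 10436 tested genes with a length, 193 were above ID3 and 274 above ID1 in that group. At 72 h in DMSO the levels were 90.4 ± 5.18 for ID3 and 60.3 ± 4.95 for ID1, still far above the 1.71 of ID2, and TGFBI (0.863 ± 0.0980) and SKIL (0.704 ± 0.180) had changed places within their spread.

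SMAD6 (ENSG00000137834, chr15:66702236-66782849, plus strand) encodes the inhibitory SMAD of the BMP arm and was counted mainly over its introns. Its exons gave only 5 to 26 counts per library, or 0.998, 0.593 and 1.02 CPM in DMSO at 24 h, 0.787, 0.528 and 0.700 in cisplatin at 24 h, 0.238, 0.341 and 0.359 in DMSO at 72 h, and 0.383, 0.327 and 0.168 in cisplatin at 72 h. The exon fall was −1.41 on the log2 scale in DMSO (SE 0.42, adjusted p = 0.00493) and −1.08 in cisplatin (SE 0.41, adjusted p = 0.0246). SMAD6 passed the exon filter through its 24 h libraries, so it could be tested there only because it was higher at that time. The call in cisplatin was also lost in 3 of 6 fits that each left out 1 library, cisplatin 24 h replicate 1 (adjusted p = 0.0969), cisplatin 24 h replicate 3 (0.0548) or cisplatin 72 h replicate 3 (0.0803).

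The SMAD6 introns were counted more often, 124 to 1275 times per library. Intron CPM, scaled to the TMM-adjusted intron total of a library, were 446, 464 and 518 in DMSO and 462, 460 and 382 in cisplatin at 24 h. At 72 h they were 73.2, 68.2 and 70.2 in DMSO and 90.2, 78.7 and 70.6 in cisplatin, so the lowest 24 h library was over 4 times the highest 72 h library. The log2 fold change was −2.75 in DMSO (SE 0.11, adjusted p = 5.85e-27), a 6.74-fold fall with a 95% interval of 5.75 to 7.90. In cisplatin it was −2.44 (SE 0.11, adjusted p = 1.39e-25), a 5.43-fold fall. SMAD6 was 1 of only 3 genes among 9618 that fell by as much in DMSO, and 1 of 3 in cisplatin. A long non-coding gene on the same strand lies within SMAD6 (chr15:66740445-66741151), has no entry in the count table, and its share of the intron counts was not tested. In DMSO at 24 h, exon counts per base of SMAD6 were only 0.499 times its intron counts per base. How much of the intron signal and its fall came from transcripts of SMAD6 itself was not tested.

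Of the 9 genes, 4 passed the filter on intron counts, and 3 of those fell with time, against 16.2% of the 9618 genes in DMSO and 15.4% in cisplatin. ID1 introns fell from 82.4, 78.2 and 71.4 intron CPM in DMSO at 24 h to 14.6, 13.2 and 13.4 at 72 h (log2 −2.50, SE 0.20, adjusted p = 1.16e-15). In cisplatin they fell from 90.7, 78.3 and 109 to 15.5, 19.5 and 14.7 (log2 −2.43, SE 0.18, adjusted p = 5.45e-17). These come from a single intron of 239 bases and 24 to 217 counts per library. ID3 introns fell from 85.0, 79.7 and 86.9 to 22.8, 14.3 and 20.9 in DMSO (log2 −2.10, SE 0.19, adjusted p = 8.19e-14) and from 78.7, 66.4 and 82.4 to 22.1, 21.2 and 16.5 in cisplatin (log2 −1.89, SE 0.18, adjusted p = 4.80e-13). Intron counts of ID1 and ID3, like their exon counts, were lower in every 72 h library than in any 24 h library of the same treatment. In intron counts alone, 21.2% of all genes were so in DMSO and 20.7% in cisplatin.

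**Figure D2:**
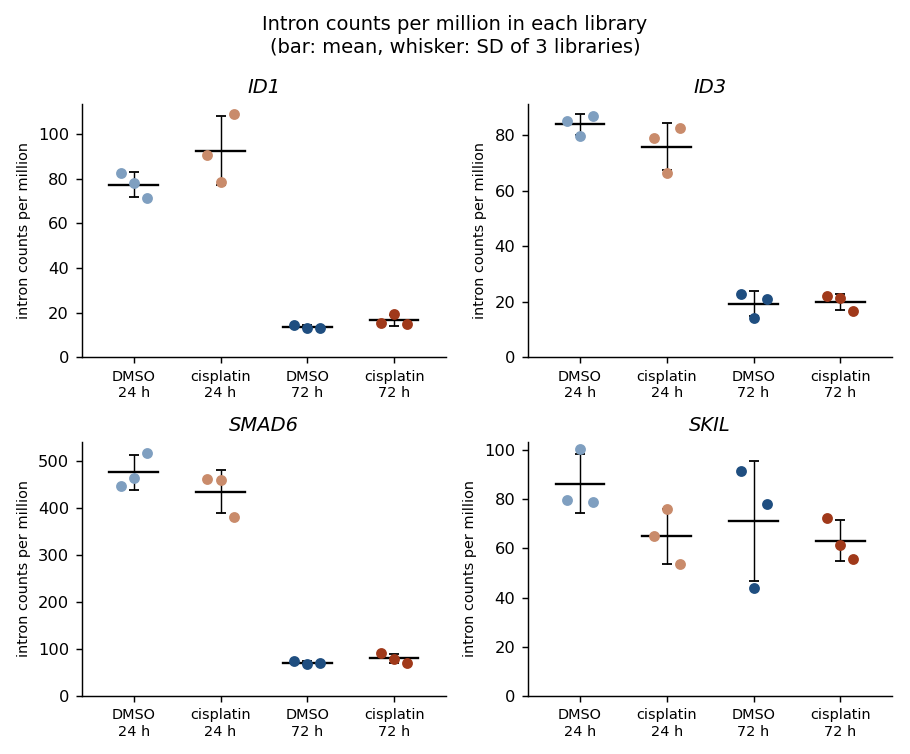
Intron CPM (linear vertical axes starting at 0) in each library for the 4 genes that passed the intron filter, with the mean (bar) and SD (whisker) of 3 libraries. SMAD6 drops from between 382 and 518 at 24 h to between 68.2 and 90.2 at 72 h, while SKIL overlaps between the times.

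Of the other feedback genes, SKIL (ENSG00000136603, chr3:170357342-170396835, plus strand) did not pass the test with time. Its exon CPM were 5.99, 4.33 and 6.36 in DMSO at 24 h, 5.38, 6.63 and 3.91 in cisplatin at 24 h, 3.61, 6.10 and 5.40 in DMSO at 72 h, and 5.89, 5.16 and 5.13 in cisplatin at 72 h. All 4 groups overlapped. The log2 difference with time was −0.12 in DMSO (95% interval −0.51 to 0.28, adjusted p = 0.608) and −0.013 in cisplatin (−0.39 to 0.36, adjusted p = 0.955). Its intron CPM ranged from 79.1 to 101 in DMSO at 24 h and from 44.0 to 91.4 at 72 h (log2 −0.28, adjusted p = 0.204), and without DMSO 72 h replicate 1 that difference was −0.47 with an adjusted p of 0.0465. SMAD7 (ENSG00000101665, chr18:48919853-48950965, minus strand) had 1 exon count in each of 2 libraries and 0 in the rest, too few for a comparison.

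TGFBI (ENSG00000120708, chr5:136028988-136063818, plus strand), the secreted TGF-beta target, stood at 2.15, 2.48 and 1.35 exon CPM in DMSO at 24 h and at 2.05, 2.43 and 1.81 in cisplatin at 24 h. At 72 h it stood at 2.62, 2.09 and 2.32 in DMSO, overlapping the earlier time, and at 2.81, 2.74 and 3.15 in cisplatin, above all cisplatin libraries at 24 h, as in 34% of all genes. The log2 difference with time was 0.19 in DMSO (SE 0.22, adjusted p = 0.444) and 0.43 in cisplatin (SE 0.20, adjusted p = 0.0695), neither past the threshold of 0.05. TGFB2 (ENSG00000092969, chr1:218345336-218444619, plus strand), the ligand among the 9, had 0 or 1 exon count in every library and 0 to 4 intron counts.

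None of the tested genes passed the test of cisplatin against DMSO at either time. At 24 h, 0 of 6 genes passed in exon counts by edgeR or DESeq2, 0 had an unadjusted p under 0.05 by edgeR, and 0% of all genes passed with either tool, with 260 of 10444 at an unadjusted p under 0.05 by edgeR. At 72 h, 0 of 6 passed by edgeR and 0 had an unadjusted p under 0.05, against 0.0287% of all genes past the threshold (3 genes) and 1311 genes at an unadjusted p under 0.05. DESeq2 gave an adjusted p at 72 h for 4167 genes and called 79, and of the target genes it gave one to ID1 and ID3 alone, neither called. The intervals were narrow for the abundant genes. For ID1 the ratio of cisplatin to DMSO was 1.01 at 24 h (95% interval 0.924 to 1.10) and 1.04 at 72 h (0.951 to 1.15), and for ID3 it was 1.01 (0.934 to 1.10) and 1.07 (0.981 to 1.16). For the less abundant genes they were wide, from 0.907 to 1.42 for ID2 at 24 h and from 0.509 to 1.83 for SMAD6 exons at 72 h. TGFBI at 72 h was the only one of the 6 whose 3 cisplatin libraries all lay above the DMSO libraries, as 8.85% of all genes did, with a ratio of 1.23 (0.934 to 1.63, adjusted p = 0.544).

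In intron counts, 0 of 4 genes passed by edgeR at 24 h (1 with an unadjusted p under 0.05), against 0.0208% of all genes, and 0 of 4 at 72 h (0 with an unadjusted p under 0.05), against 0.0416%. DESeq2 called 0 of the 4 at 24 h, and at 72 h it gave an adjusted p for 1413 genes, of the target genes to SMAD6 alone, which was not called. The lowest unadjusted p was that of SKIL at 24 h, where the cisplatin libraries at 65.0, 76.1 and 53.6 intron CPM all lay below the DMSO libraries at 79.7, 101 and 79.1, as in 4.54% of all genes (log2 −0.39, SE 0.17, unadjusted p = 0.0285, adjusted p = 0.942). SKIL exons in the same libraries overlapped. At 72 h the ID1 introns lay higher in every cisplatin library than in any DMSO library, as in 6.35% of all genes (log2 0.31, SE 0.22, unadjusted p = 0.170, adjusted p = 0.866). For SMAD6 introns the ratio of cisplatin to DMSO was 0.918 at 24 h (0.800 to 1.05) and 1.14 at 72 h (0.963 to 1.35).

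The drop with time was not shown to differ between the treatments. The difference of the 2 time effects, which is also the difference of the 2 cisplatin effects, was 0.049 on the log2 scale for ID1 (95% interval −0.14 to 0.24), 0.075 for ID3 (−0.092 to 0.24), −0.27 for ID2 (−0.79 to 0.25) and 0.33 for SMAD6 exons (−0.90 to 1.55). None of the 6 exon differences passed (lowest adjusted p = 0.729), against 0% of all genes, 985 of them at an unadjusted p under 0.05. DESeq2 gave an adjusted p for this difference to 1535 genes, ID1 and ID3 among them, and called 0. None of the 4 intron differences passed (lowest adjusted p = 0.886), against 0.0416% of all genes.

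**Figure D3:**
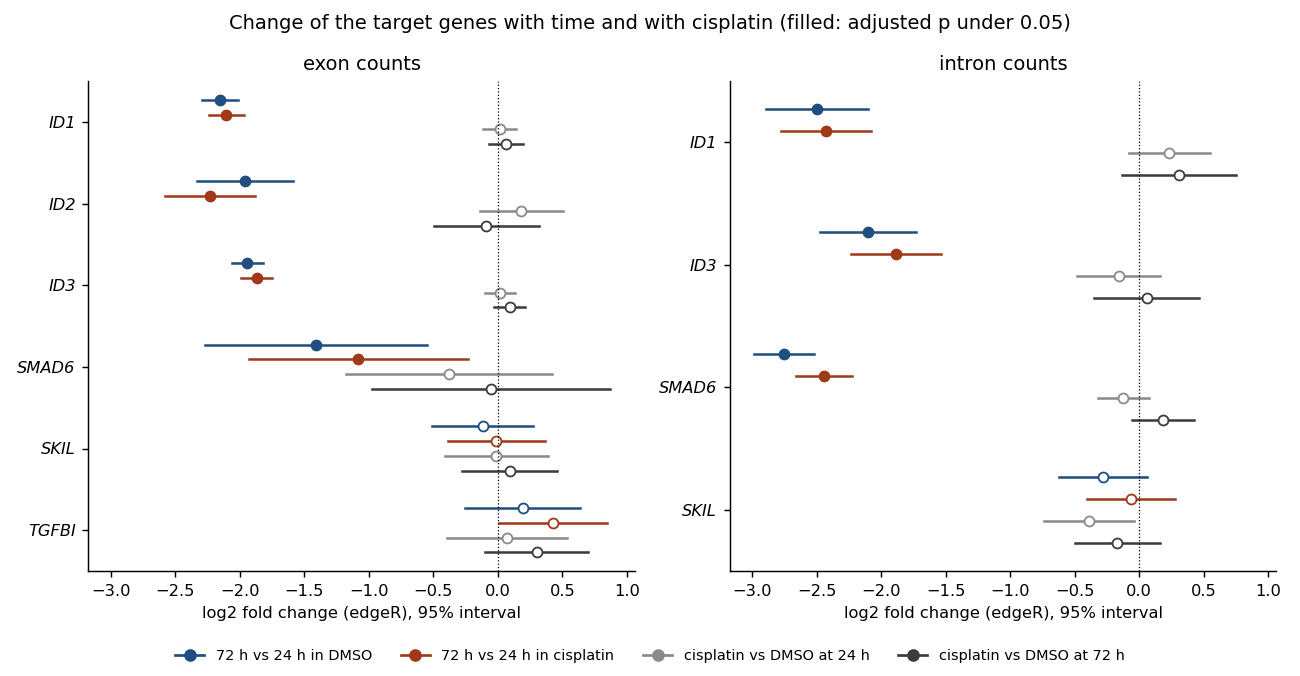
Log2 fold change with its 95% interval by edgeR for each tested gene, in exon counts (left) and intron counts (right), for the 2 comparisons with time and the 2 comparisons of cisplatin with DMSO. Filled points, with adjusted p under 0.05, are the time changes of ID1, ID2, ID3 and SMAD6, between −2.75 and −1.08, and the open points of both cisplatin comparisons lie between −0.39 and 0.31.

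The study took the ratio of exon to intron counts as its measure of splicing, for which the 2 kinds of count were made. Of the 9 genes, 5 had enough of both. TGFBI did so only through 72 h libraries, with 10 and 19 intron counts in DMSO replicates 2 and 3 and 23 in cisplatin replicate 2. At 24 h it had 4 to 7 intron counts in DMSO and 4 to 9 in cisplatin. The SMAD6 ratio was 0.0308, 0.0186 and 0.0259 in DMSO at 24 h and 0.0480, 0.0726 and 0.0732 at 72 h, and in cisplatin it was 0.0222, 0.0141 and 0.0259 at 24 h and 0.0596, 0.0572 and 0.0316 at 72 h. Every 72 h library was above every 24 h library of its treatment, as in 19.3% of all genes in DMSO and 19.7% in cisplatin. SMAD6 was the 1 gene of 5 that rose in DMSO (2.66-fold, log2 1.41, SE 0.38, adjusted p = 0.0149), against 8.09% of 9380 genes, and in cisplatin (log2 1.46, SE 0.35, adjusted p = 0.00597), against 8.36%. The median of all genes was 0.10 in DMSO and 0.11 in cisplatin on this log2 scale. Each call held in 4 of 6 fits with 1 library left out and in neither treatment with a quasi-binomial regression (adjusted p = 0.142 and 0.122). It was lost without DMSO 72 h replicate 2 (0.0608) or 3 (0.115), and without cisplatin 24 h replicate 2 (0.0550) or cisplatin 72 h replicate 2 (0.0570).

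The low ratio of SMAD6 held per base as well. Exon counts per base were 0.499 times intron counts per base in DMSO at 24 h, where the median gene was at 109 and only 80 of 9368 genes were lower, and 1.33 times at 72 h. For ID1, ID3, SKIL and TGFBI this quotient in DMSO at 24 h was 11.5, 36.3, 3.86 and 113, the last resting on only 4 to 7 intron counts per library. Per base, the introns of SMAD6 thus held more counts than its exons in DMSO at 24 h, and likewise in cisplatin (0.378). Whether the SMAD6 ratio and its rise with time reflect splicing was not tested.

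The ID1 ratio lay at 47.1, 48.2 and 45.7 in DMSO and 36.4, 40.6 and 37.2 in cisplatin at 24 h. At 72 h it lay at 65.5, 62.0 and 60.5 in DMSO and 53.9, 44.0 and 57.3 in cisplatin, so the cisplatin libraries were below the DMSO libraries at both times, as 7.36% of all genes were at 24 h and 11.8% at 72 h. The log2 difference with cisplatin was −0.30 at 24 h (SE 0.14, unadjusted p = 0.0344, adjusted p = 0.776) and −0.32 at 72 h (SE 0.20, adjusted p = 0.813), neither past the threshold. The median over all genes was −0.086 at 24 h and −0.084 at 72 h. No ratio of the 5 genes passed with cisplatin at 24 h, against 0% of all genes by edgeR (594 of 9380 genes had an unadjusted p under 0.05, and logistic regression called 1110), or at 72 h, against 0.0213%. With logistic regression, which takes each fragment as independent, the ID1 ratio at 24 h was called (log2 −0.30, adjusted p = 0.0267). ID3 stood at 54.5 ± 6.83 in DMSO and 58.2 ± 4.22 in cisplatin at 24 h, and at 66.9 ± 15.5 and 63.8 ± 10.1 at 72 h (SD, n = 3).

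**Figure D4:**
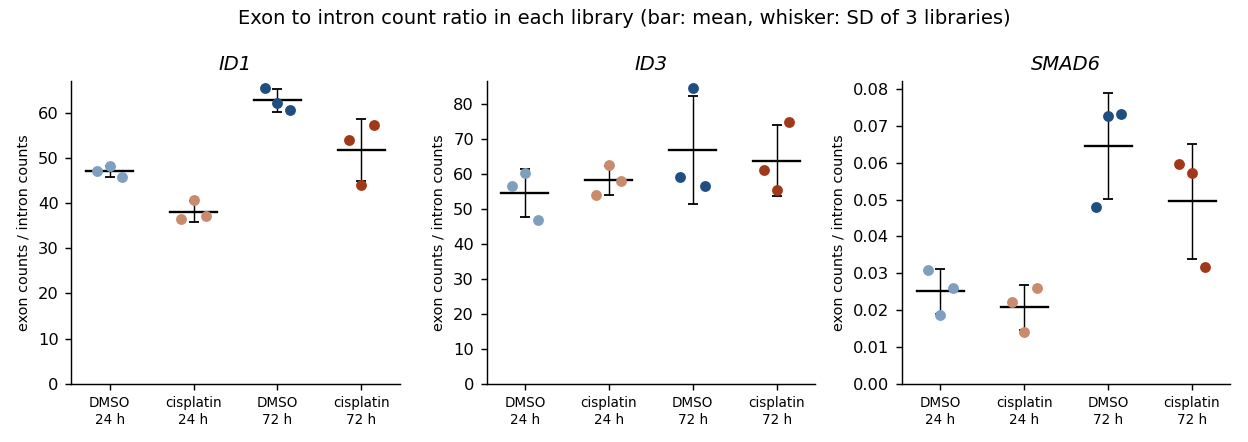
Exon counts divided by intron counts in each library for ID1, ID3 and SMAD6 (linear vertical axes starting at 0), with the mean (bar) and SD (whisker) of 3 libraries. SMAD6 lies between 0.0141 and 0.0308 at 24 h and between 0.0316 and 0.0732 at 72 h, and the ID1 libraries lie lower in cisplatin than in DMSO at each time, a difference that did not pass the test (adjusted p = 0.776 and 0.813).

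The pathway around these genes did not move in one direction with time. Of 65 other pathway genes in 7 lists by role, 63 were in the table and 43 were tested. From 24 to 72 h in DMSO 17 rose and 12 fell, or 67.4% against 65.1% of all genes, and in cisplatin 20 rose and 10 fell, or 69.8% against 63.5%. These total shares are near the background, while in cisplatin more of the 43 rose than fell. Of all genes 32.6% rose and 32.5% fell in DMSO, and 32% rose and 31.5% fell in cisplatin, beside which the counts of each role below stand. The median log2 change of the 43 was −0.024 in DMSO and 0.24 in cisplatin, beside 0.015 and 0.017 for all genes. With cisplatin 0 of the 43 passed by edgeR at 24 h (0 with an unadjusted p under 0.05, and 0 called by DESeq2) and 0 at 72 h (8 with an unadjusted p under 0.05, and 0 called by DESeq2 among those to which it gave an adjusted p).

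Among 12 ligands, 6 were tested, 2 rose and 2 fell in each treatment. GDF15, a divergent member of the family known as a stress-induced cytokine, rose from 36.6 ± 5.53 to 225 ± 11.3 exon CPM in DMSO (log2 2.61, adjusted p = 1.13e-17) and from 39.8 ± 3.15 to 201 ± 15.4 in cisplatin (log2 2.33). TGFB3 rose by 0.53 and 0.45 on the log2 scale, and TGFB1 fell from 239 ± 14.7 to 172 ± 6.93 CPM in DMSO (log2 −0.47) and by 0.36 in cisplatin. GDF11 fell by 0.87 and by 0.78. BMP6, a ligand of the BMP arm, was at 82.1 exon CPM in DMSO at 24 h and 75.2 at 72 h (adjusted p = 0.0546), and BMP2 and BMP7 were at 0 in every library.

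Of 12 receptors and co-receptors, 10 were tested. ACVR1, a type I receptor for BMP, rose in both treatments (log2 0.67 and 0.78), whereas BMPR1A, another BMP type I receptor, fell from 58.6 ± 4.18 to 37.8 ± 2.68 CPM in DMSO (log2 −0.63) and by 0.52 in cisplatin. ENG, a co-receptor of the BMP and TGF-beta arms in endothelium, fell by 0.54 and by 0.35. ACVR2A rose in cisplatin (log2 0.39, adjusted p = 0.0150, and 0.113, 0.0713 or 0.0739 without cisplatin 24 h replicate 2 or 3 or cisplatin 72 h replicate 1), and the difference from DMSO was not past the threshold. ACVRL1 was present at 18.8 CPM and BMPR2 at 83.2 CPM in DMSO at 24 h without a call, and TGFBR2, the type II receptor for TGF-beta, was at 0 in every library.

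The signal-carrying SMADs of the BMP arm did not move as one. SMAD1 rose by 0.26 and 0.37 on the log2 scale in DMSO and cisplatin, SMAD5 fell by 0.21 and by 0.17, and SMAD9 fell from 18.4 ± 0.750 to 12.1 ± 0.827 CPM in DMSO (log2 −0.60) and by 0.31 in cisplatin. SMAD5 lost its call in DMSO without DMSO 24 h replicate 3 (log2 −0.13, adjusted p = 0.0821) and in cisplatin without cisplatin 24 h replicate 1 or 3 or cisplatin 72 h replicate 2 (log2 −0.16 to −0.12), and SMAD9 lost its call in cisplatin without cisplatin 72 h replicate 2 (adjusted p = 0.0530). Of the TGF-beta arm, SMAD2 rose by 0.44 and 0.42 and SMAD3 did not pass. SMAD4 was not analysed here. Of the 13 inhibitors, 8 were tested, with 5 rising and 2 falling in each treatment. CHRD, which binds BMP outside the cell, rose from 21.7 ± 2.66 to 48.1 ± 5.72 CPM in DMSO (log2 1.15) and by 0.96 in cisplatin, and TGIF1, a co-repressor of SMADs, rose by 1.16 and 0.98. NOG, another extracellular BMP inhibitor, fell by 0.39 and by 0.30, and SKI, the co-repressor related to SKIL, fell from 140 ± 13.9 to 86.8 ± 7.90 CPM in DMSO (log2 −0.68) and by 0.41 in cisplatin.

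Of the genes for latency and activation of TGF-beta, 4 of 6 tested rose and 1 fell in each treatment. LTBP2, named for its likeness to the latent TGF-beta binding proteins, rose from 262 ± 19.2 to 539 ± 17.2 CPM in DMSO (log2 1.04, adjusted p = 1.88e-13) and by 1.17 in cisplatin, LTBP4 rose by 0.66 and 0.61, and ITGAV, an integrin subunit that helps release the active ligand, fell by 0.87 and by 0.63. Of the other target genes, 5 were tested. Among these 3 rose and 2 fell in DMSO, and 3 rose and 1 fell in cisplatin, SNAI1 included in each count of falls. JUNB rose by 1.04 and 0.85. SNAI1, a zinc-finger repressor named here after its values were seen, fell from 1.64 to 0.363 CPM in DMSO (log2 −2.12, adjusted p = 2.05e-05) and from 1.32 to 0.507 in cisplatin (log2 −1.41, adjusted p = 0.00101), on 8 to 47 counts per library. KLF10 fell in DMSO (log2 −0.16, adjusted p = 0.0266), a call lost without DMSO 24 h replicate 2 (0.0730), DMSO 72 h replicate 1 (0.110) or DMSO 72 h replicate 3 (0.0683). CDKN2B, PMEPA1, SNAI2 and ATOH8 were at 0.

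The E proteins that ID proteins capture showed 0 calls of 3 in DMSO by edgeR (0 with an unadjusted p under 0.05). In cisplatin TCF12 rose (log2 0.30, adjusted p = 0.000565), as did TCF4 (log2 0.30, adjusted p = 0.0303), the latter with an adjusted p of 0.113, 0.0602 or 0.101 without cisplatin 24 h replicate 1 or 3 or cisplatin 72 h replicate 3. The difference between the treatments did not pass for either.

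**Figure D5:**
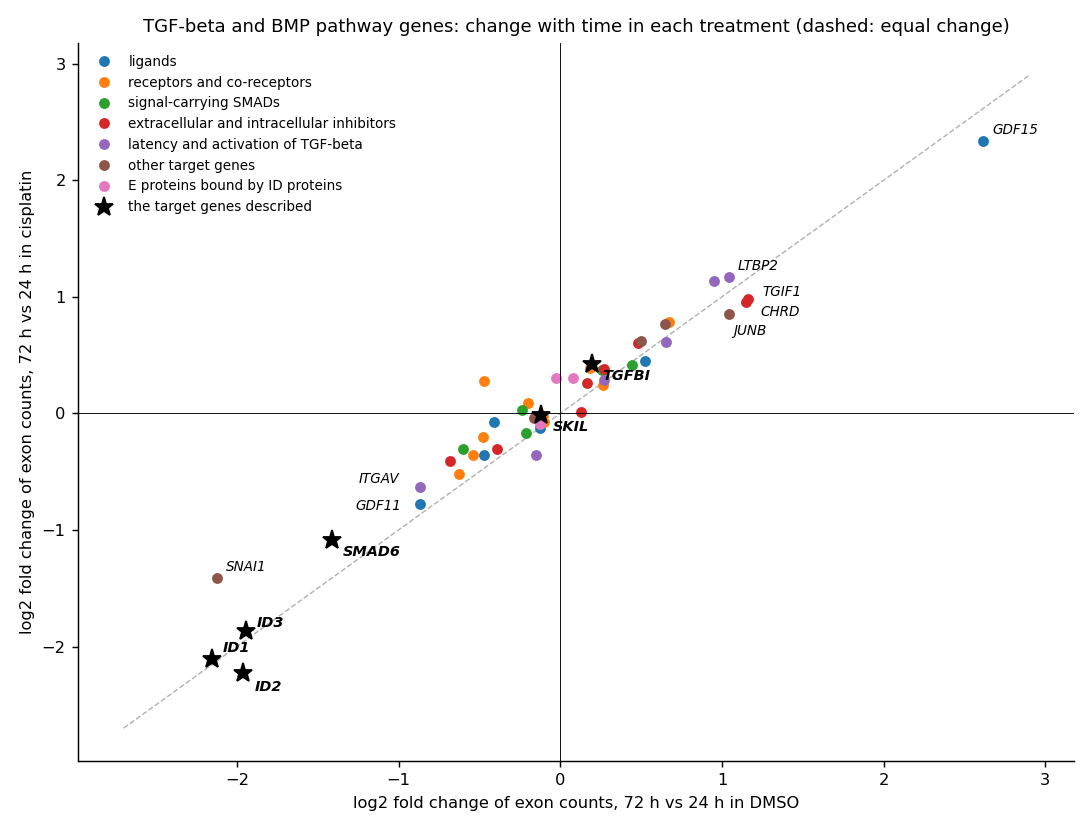
Log2 fold change of exon counts from 24 to 72 h in DMSO (horizontal) and in cisplatin (vertical) for 43 tested pathway genes, coloured by role, and for the 6 tested target genes (stars). ID1, ID2 and ID3 lie at the lower left near −2 on both axes, and GDF15 at the upper right. SNAI1 lies at −2.12 in DMSO and −1.41 in cisplatin, SMAD6 at −1.41 and −1.08, and SKIL and TGFBI near the centre.

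The marker genes moved with time in both directions. Of the 10 endothelial genes tested, 1 rose and 4 fell in DMSO and 3 rose and 4 fell in cisplatin, near the 65.1% and 63.5% of all genes called in either direction. PECAM1 fell by 0.82 on the log2 scale in DMSO and by 0.74 in cisplatin. Of the 5 tested markers of a serous ovarian line, EPCAM passed the filter only through the 72 h libraries, where it was higher, so no count over the list is read. KRT8, an epithelial keratin, rose from 13.1 to 32.3 exon CPM in DMSO (log2 1.29) and by 1.42 on the log2 scale in cisplatin. EPCAM, an epithelial adhesion molecule, went from 0.264 to 1.38 exon CPM in DMSO and from 0.224 to 1.45 in cisplatin, on 2 to 83 counts per library. KRT18 fell from 173 to 134 exon CPM in DMSO and from 175 to 145 in cisplatin, while WT1 and MECOM fell in DMSO (log2 −0.78 and −0.15) and did not pass in cisplatin (−0.26 and 0.029). The part of these levels in the falls of the ID genes and SMAD6 was not tested.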

How the data were processed

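TYK-nu cells given 15 μM cisplatin or DMSO for 24 or 72 h were profiled by paired-end poly(A)+ RNA-seq, 3 libraries per group. Per the labels and the study's methods, the authors checked reads with FastQC 0.11.8, trimmed them with Trim Galore 0.6.0, aligned them with HISAT2 2.1.0 to GRCh38 and counted fragments with HTSeq on separate Ensembl 98 exon (intersection-strict) and intron (union) annotations. The deposited values are raw counts per gene, and a blank, where a gene has no entry for exons or introns, was left out. The strand option and the HTSeq version are not given in the sources used here.

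Libraries were grouped by their labels. Exon and intron counts were each fitted with edgeR 4.0.16 (R 4.3.3, quasi-likelihood, TMM, filterByExpr, 1 term per group, all 12 libraries), and p-values were adjusted by Benjamini-Hochberg over all genes tested, with a threshold of 0.05. CPM in the text use the TMM-scaled exon or intron library size, except for the limit of 3 counts, which uses the unadjusted exon total. The exon to intron ratio was tested in 1 edgeR model of both counts with a term per library, on genes reaching 10 counts over both exons and introns in 3 or more libraries. Its main test differs from the logistic regression used in the study, which was run as an alternative. The comparisons of cisplatin with DMSO share their groups with the comparisons of 72 h with 24 h. Scripts were tested on simulated data.

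Totals per library (exon plus intron) ran from 18526830 to 68753262 counts. Intervals on ratios are 95% intervals of the fit, and the limit of 3 counts covers counting error only. Coordinates and canonical transcript lengths are from GENCODE 44 on GRCh38, which matched 17485 of 17508 genes. Promoter windows are from RefSeq on GRCh38.p14. Python 3.11.15 and matplotlib 3.10.9 were used for tables and figures.

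The members and all gene lists were chosen with earlier results of these data known. Of the pathway lists, the text names up to 2 genes per list and direction with the largest called change and a mean of at least 50 exon counts, genes listed at 0, and a few others given as uncalled values (BMP6, ACVRL1, BMPR2, SMAD3) or said to be chosen after their values were seen. A gene that this rule also names is not reported here. Genes most alike are the 2 with the highest r per gene. Alternatives were DESeq2 1.42.0, other scalings, no filter, a replicate block, and leaving out each library.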

Additional observations from a re-analysis of the deposited data

Results flagged for a closer look

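One value was marked because samples of the 2 times lay on opposite sides of their controls. In SMAD6 introns, the 3 cisplatin libraries at 24 h (462, 460 and 382 intron CPM) were all below the mean of the DMSO libraries (476 ± 37.3), and the 3 at 72 h (90.2, 78.7 and 70.6) were all above it (70.5 ± 2.51), though the groups overlapped at both times. The cisplatin effect at 72 h minus that at 24 h was 0.31 on the log2 scale (SE 0.16, unadjusted p = 0.0512, adjusted p = 0.886 by edgeR) and ranged from 0.22 to 0.38 when 1 library was left out, so the difference was not past the threshold.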

How the results depend on the processing

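The falls of ID1, ID2, ID3 and SMAD6 introns with time kept their direction and call under every alternative that gave an adjusted p. SMAD6 exons, which passed the filter only through the 24 h libraries where they were higher, gave log2 −1.65 to −1.28 in DMSO with 1 library left out, and in cisplatin −1.28 to −0.89, where the call was lost in 3 of 6 fits, so that 3 to 4 of the 9 genes were called there. Of 305 alternative values of the target genes with time, 285 kept side and direction, 9 lost and 2 gained a call, and 9 changed sign, and of 454 with cisplatin 427 kept both, 1 gained a call and 26 changed sign. Every change of sign came from leaving out 1 library and concerned an uncalled value.

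The counts of genes called over the whole table moved with the setting. Without a filter on low counts the calls with cisplatin were 7 (exons, 24 h), 154 (exons, 72 h), 20 (exons, difference of effects), 5, 19 and 11 (introns, the same order), and DESeq2 gave 79 of 4167 genes with an adjusted p for exons at 72 h, and 0 of 9617 and 2 of 1413 for introns at 24 and 72 h. Introns scaled by exon size factors gave 0 at 24 h. Logistic regression of the ratio called 1110 and 1144 genes with cisplatin at 24 and 72 h and 3278 and 3984 with time in DMSO and cisplatin, including 1 target gene at 24 h (ID1), 1 with time in DMSO (SMAD6) and 2 with time in cisplatin (ID1 and SMAD6). Quasi-binomial regression called 0 at 72 h with cisplatin, and 64 and 97 genes with time, 0 of them target genes. With the minimum lowered to 1 count of each kind, 2 and 13 ratios were called with cisplatin. The cause of these shifts was not tested.

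Leaving out 1 library moved the genes called with cisplatin from 0 to 1 (exons, 24 h), 0 to 72 (exons, 72 h), 0 to 1 (exons, difference of effects), 0 to 2, 3 to 9 and 0 to 7 (introns, the same order) and 1 to 4 (ratio, 72 h). With time the ratio calls ranged from 699 to 878 in DMSO and 636 to 1121 in cisplatin, with 0 to 1 target gene. The uncalled values that changed sign ranged, in exons with cisplatin at 24 h, from −0.041 to 0.066 (ID1), −0.023 to 0.060 (ID3), −0.22 to 0.14 (SKIL) and −0.11 to 0.26 (TGFBI). At 72 h they ranged from −0.26 to 0.082 (ID2), −0.25 to 0.14 (SMAD6) and −0.084 to 0.23 (SKIL), and with time SKIL ranged from −0.28 to 0.058 in DMSO and −0.17 to 0.20 in cisplatin. The exon difference of effects ranged from −0.0032 to 0.12 (ID1) and −0.072 to 0.32 (SKIL). In introns the ranges were −0.10 to 0.16 (ID3) and −0.41 to 0.016 (SKIL) with cisplatin at 72 h, −0.16 to 0.085 (SKIL) with time in cisplatin, and −0.085 to 0.19 (ID1) and −0.013 to 0.41 (SKIL) for the difference of effects. In ratios they were −0.00022 to 0.17 (ID3) at 24 h, −0.17 to 0.093 (ID3) and −0.21 to 0.58 (SKIL) at 72 h, −0.16 to 0.63 (SKIL) with time in DMSO and −0.010 to 0.18 (ID3) with time in cisplatin.

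Deviations of same-numbered libraries from their group means correlated between −0.235 and 0.168 in exon counts, so the numbers were not taken to pair the samples. With the number as a replicate block, 0, 2, 6751, 6538 and 0 exon calls (cisplatin at 24 h, at 72 h, time in DMSO, time in cisplatin, difference of effects), 0, 3, 3154, 3007 and 0 intron calls and 0, 2, 957 and 974 ratio calls were made, and no target gene changed its call. At this depth ID4, SMAD7 and TGFB2 were at or near 0, so that no change in them could be measured, and SMAD6 exons held few counts.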
